A study of Mus musculus with 16 samples.

Results

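Prostaglandin E2 (PGE2) given without a TCR stimulus was set against a TCR and CD28 stimulus given without PGE2 in mouse TCF1+CD8+ T cells, 4 libraries a side and 8 of the 16 libraries of the series. Naive CD8+ T cells from C57BL/6J spleens had been activated repeatedly in vitro for 4 days, which yields antigen-experienced cells that keep TCF1, the transcription factor of stem-like T cells. The PGE2 alone cells were held for 1 h with 100 ng per ml PGE2 and then for 4 h with low-dose IL-2 (85 U per ml). The beads alone cells had 1 h without PGE2 and then 4 h with the same IL-2 and anti-CD3/CD28 beads, 1 bead per cell. The baseline cells (n = 4) had IL-2 and neither agent, and the last group (n = 4) had both and is called beads and PGE2. All groups thus share the genotype, the repeated activation and the IL-2, and the cells model stem-like T cells in a dish, not cells taken from a tumour. RNA was sequenced in bulk and reads were counted per gene. The labels number 4 replicates in each group and do not say whether these were separate animals or cultures, so p-values measure the spread between these libraries, which may be technical.

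PGE2 binds 4 receptors, of which EP2 (Ptger2) and EP4 (Ptger4) couple to the stimulatory G protein, raise cAMP and activate protein kinase A, which phosphorylates the transcription factor CREB. In T cells this pathway is known to dampen signals from the antigen receptor. The beads cross-link CD3 and CD28, as antigen and costimulation would, and that switches on calcium, MAP kinase and NF-kB signalling, cytokine genes, and the growth program with its supply of new ribosomes. A number of immediate early genes are known to answer to both cAMP and the antigen receptor, so the overlap of the 2 responses can be read gene by gene.

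The library sizes ran from 22678254 to 42950763 reads, and replicates of a group differed by more than counting error (chi-square per degree of freedom 8.46 to 56.8 between pairs). Of 54532 genes, 14793 passed the filter on low counts. The CD8 T cell markers summed to 4647 to 6833 CPM (read counts scaled to the library size with TMM factors) in every library. At baseline Cd8a was at 938 to 1032 CPM and Tcf7, which encodes TCF1, at 912 to 1478 CPM. Myeloid, NK cell and erythroid markers summed to at most 6.61, 0.865 and 0.820 CPM, with 3 to 5 of 10, 2 or 3 of 4 and 3 of 6 at 0 in a whole group. B cell markers summed to 10.1 to 21.9 CPM in cells without beads and 4.47 to 12.4 CPM in cells with beads, and CD4 T cell markers to 26.9 to 40.1 and 14.5 to 26.6 CPM, with none at 0. Their part in the genes lowered by beads was not tested.

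The first question was how large each response was. DEGs are genes with a fold change of at least 2 and a Benjamini-Hochberg adjusted p under 0.05 in edgeR's quasi-likelihood test, fitted on the 12 libraries of baseline, PGE2 alone and beads alone. PGE2 alone changed 532 genes against baseline (3.6% of those tested), raising 214 (1.45%) and lowering 318 (2.15%). Beads alone changed 3465 (23.4%), raising 1672 (11.3%) and lowering 1793 (12.1%). Set against each other, PGE2 alone and beads alone differed in 4775 genes (32.3%), 2470 of them higher with PGE2 (16.7%) and 2305 higher with beads (15.6%). The fold changes of this last comparison do not use baseline levels, although baseline libraries enter the filter and the estimate of spread. In bulk RNA, fewer cells that express a gene and less RNA per cell cannot be told apart.

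Of the 532 genes that PGE2 changed, 49 (9.21%) were changed the same way by beads and 260 (48.9%) the opposite way. The same-way genes comprised 30 raised by both and 19 lowered by both. Among the opposite genes, 203 were lowered by PGE2 and raised by beads, and 57 were raised by PGE2 and lowered by beads. The largest class held 63.8% of the 318 genes that PGE2 lowered, where beads raised 11.3% of all genes tested. The 57 made up 26.6% of the 214 genes that PGE2 raised, where beads lowered 12.1% of all genes tested. As shares of each response, the classes of 30, 19, 57 and 203 held 5.64%, 3.57%, 10.7% and 38.2% of the PGE2 DEGs and 0.866%, 0.548%, 1.65% and 5.86% of the bead DEGs. Both responses were measured against the same 4 baseline libraries, so the counts are given as the classes define them, with no test of the overlap. The count raised by both moved most when a library was left out, to 18 without PGE2 alone replicate 4, 19 without baseline replicate 1 and 58 without baseline replicate 4.

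**Figure D1:**
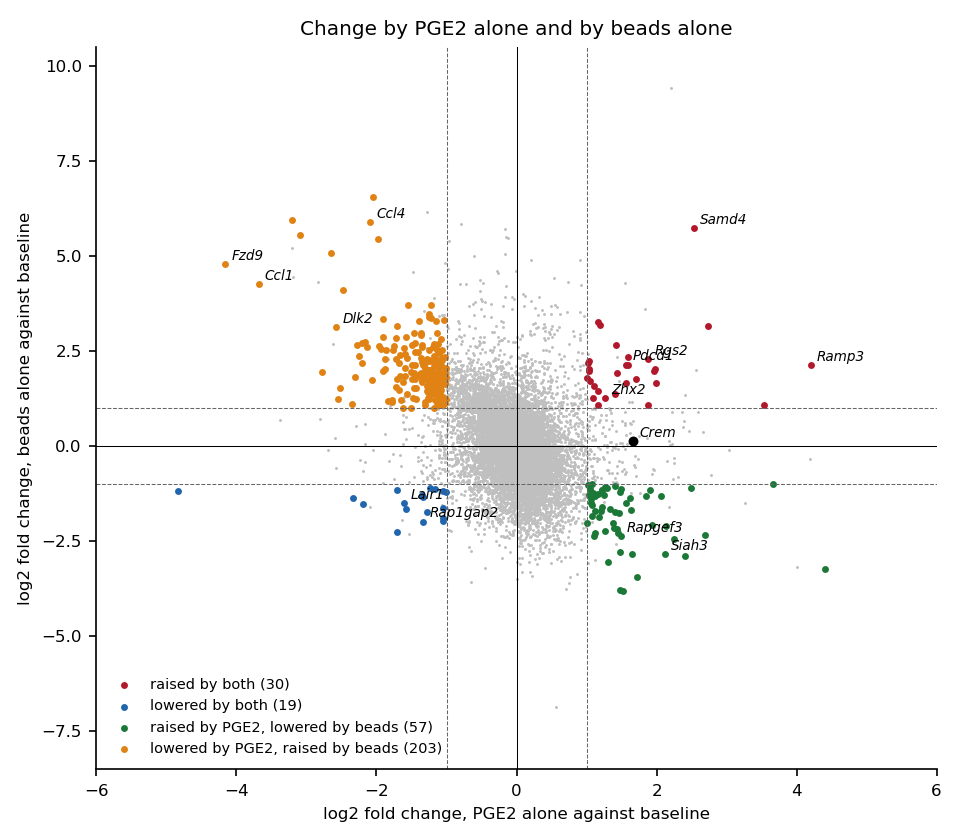
Each point is 1 of 14793 genes, with the log2 fold change of PGE2 alone against baseline on the x axis and that of beads alone against baseline on the y axis. Dashed lines mark a fold of 2, coloured points are the classes, and the upper left quadrant holds the 203 genes lowered by PGE2 and raised by beads, against 30 in the upper right.

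Membership at the edge of a class rests on small differences. Epor and Asph lay on either side of the threshold for raised by both, with log2 fold changes under PGE2 and beads of 1.01 and 1.80 for Epor (inside) and 1.33 and 0.998 for Asph (outside). For the largest class they were Telo2 (-1.01 and 1.24, inside) and Kbtbd8 (-0.9998 and 1.29, outside). In all, 11, 10, 22 and 58 genes passed both adjusted p-values in the class directions but had a smaller log2 change between 0.9 and 1, beside the 30, 19, 57 and 203 members.

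Promoters of the members were searched for the letters that CREB and its relatives bind, since both agents reach CREB-family factors. RefSeq gave 300-base windows on GRCm38.p6 (250 bases before and 50 after the start) for 22 of 30, 16 of 19, 36 of 57 and 151 of 203 members. The full cAMP response element, TGACGTCA, was in no window of the first 3 classes and in 4 of 190 windows (2.11%) of the genes lowered by PGE2 and raised by beads, those of Ccdc86, Mrm3, Ppan and Trmt61a. It was in 3.09% of windows of all genes tested. Its core TGACG, read on both strands and contained in the full element, was in 31.0% of windows of genes raised by both, 17.4% of those lowered by both, 43.9% of those raised by PGE2 and lowered by beads, and 26.8% of those lowered by PGE2 and raised by beads, against 31.1% for genes tested and 20.8% of all 32851 windows. The windows of the 3 small classes number 29, 23 and 41. The AP-1 letters TGANTCA were in 10.3%, 13.0%, 4.88% and 3.68% of the windows in the same class order and in 4.94% of those of genes tested, the EGR letters GCGTGGG in 0%, 0%, 9.76% and 8.42% and in 8.30%, and the kappaB letters, GGG and CC with any 5 bases between, in 75.9%, 65.2%, 65.9% and 63.7% and in 66.5%. Starts of the same gene count as separate windows. The AP-1 shares of the first 2 classes rest on 3 windows each, from Upp1 (2) and Frmd4b (1) and from Ifitm10 (2) and Gpr15 (1).

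For each class, the bases before the start site of its leading named gene with this core are shown 5′ to 3′ on the gene's strand, with TGACG or its reverse complement in capitals. They show how these letters sit in genes of each pattern, including Rapgef3, itself a cAMP sensor.
Rgs2 (raised by both; chr1:144004150-144004399, minus strand, GRCm38.p6): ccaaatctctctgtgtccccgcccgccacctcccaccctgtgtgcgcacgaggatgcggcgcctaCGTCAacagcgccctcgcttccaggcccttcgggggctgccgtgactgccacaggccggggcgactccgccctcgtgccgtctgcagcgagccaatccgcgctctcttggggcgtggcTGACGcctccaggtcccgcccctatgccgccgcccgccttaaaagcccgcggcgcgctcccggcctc
Rap1gap2 (lowered by both; chr11:74522802-74523051, minus strand, 1 of 4 starts): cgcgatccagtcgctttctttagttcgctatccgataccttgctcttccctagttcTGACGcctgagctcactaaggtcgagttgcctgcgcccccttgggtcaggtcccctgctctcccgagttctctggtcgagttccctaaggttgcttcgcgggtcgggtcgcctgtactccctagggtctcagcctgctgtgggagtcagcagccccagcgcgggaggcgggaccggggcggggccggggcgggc
Rapgef3 (raised by PGE2 and lowered by beads; chr15:97767667-97767916, minus strand): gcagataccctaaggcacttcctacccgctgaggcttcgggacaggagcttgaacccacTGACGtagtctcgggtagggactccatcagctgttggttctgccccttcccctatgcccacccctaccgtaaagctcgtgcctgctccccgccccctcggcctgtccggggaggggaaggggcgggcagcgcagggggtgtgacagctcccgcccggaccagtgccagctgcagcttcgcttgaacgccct
Dlk2 (lowered by PGE2 and raised by beads; chr17:46297233-46297482, plus strand, 1 of 2 starts): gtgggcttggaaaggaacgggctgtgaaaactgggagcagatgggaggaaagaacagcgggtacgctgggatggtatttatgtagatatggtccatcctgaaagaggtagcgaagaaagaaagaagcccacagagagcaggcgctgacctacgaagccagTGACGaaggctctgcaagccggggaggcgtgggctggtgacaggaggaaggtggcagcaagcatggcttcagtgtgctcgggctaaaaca
The matches began 185 and 67 bases before the start in Rgs2, 194 in Rap1gap2, 191 in Rapgef3 and 90 in Dlk2. They are runs of letters, not measured binding sites.

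The 203 genes lowered by PGE2 and raised by beads held 10 of the 22 cytokine and chemokine genes tested and 21 of the 30 nucleolar ribosome biogenesis genes, where the class held 203 of all 14793 genes tested. Their median log2 fold change was -1.26 with PGE2 and 1.92 with beads, and in 178 of them the bead change was the larger in size. Of these genes, 183 had all 4 libraries of each treated group on the far side of all 4 baseline libraries, where 28.5% of all genes tested had no overlap with baseline for PGE2 and 59.9% for beads. Members were called from these same libraries, so such separation partly follows from the choice and is not independent support. That holds for the same counts in the other classes below.

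Ccl4, a chemokine secreted by activated T cells (GRCm38 chromosome 11, 83662584 to 83664683), was at 8.11, 7.62, 12.5 and 22.8 CPM in the 4 baseline libraries. With PGE2 alone it was at 1.97, 1.80, 2.17 and 5.80 CPM and with beads alone at 1132, 918, 610.2 and 434 CPM. Every PGE2 library was below every baseline library and every bead library was above, and replicate 4 of PGE2 alone was the highest of its group. The up to 6 leading genes named in each class were picked among members without overlap with baseline. Their separation from baseline is thus part of that choice and no added support. The log2 fold change was -2.09 (SE 0.44, edgeR adjusted p = 0.00248) for PGE2 and 5.90 (SE 0.44, edgeR adjusted p = 1.61e-08) for beads. Ccl1, the ligand of CCR8, stood at 1.10, 1.36, 0.788 and 2.44 CPM at baseline and 0, 0.113, 0.138 and 0.153 CPM with PGE2, against 33.3, 35.2, 21.7 and 20.9 CPM with beads. Its groups did not overlap either, and its log2 fold changes were -3.68 (SE 0.52, edgeR adjusted p = 1.04e-04) and 4.27 (SE 0.30, edgeR adjusted p = 9.06e-09).

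Fzd9, a Wnt receptor, fell to near absence with PGE2. It had 2, 10, 6 and 6 reads in the baseline libraries and 0, 0, 0 and 1 in the PGE2 libraries, 1 read in all against 24, a level 27.6-fold lower with a 95% counting interval of 4.50 to 1134 (exact binomial, counting error only). With beads Fzd9 was at 7.41, 6.46, 4.88 and 3.50 CPM, above all baseline libraries (log2 fold change 4.79, SE 0.35, edgeR adjusted p = 1.25e-08). Dlk2, a transmembrane protein of the Delta-like family, went from 1.37, 2.03, 1.29 and 1.81 CPM to 0.562, 0.0844, 0.165 and 0.305 CPM with PGE2 and to 18.2, 16.7, 13.8 and 8.78 CPM with beads. No library of these 3 groups crossed into another group, and the log2 fold changes were -2.58 (SE 0.39, edgeR adjusted p = 2.03e-04) and 3.13 (SE 0.29, edgeR adjusted p = 1.40e-07).

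Car12, which encodes carbonic anhydrase XII, measured 11.1, 13.6, 11.5 and 13.6 CPM at baseline, 2.81, 2.34, 2.42 and 3.18 CPM with PGE2 and 84.2, 95.6, 80.1 and 67.9 CPM with beads. No library of Car12 lay in another group's range, and the log2 fold changes were -2.20 (SE 0.13, edgeR adjusted p = 1.42e-07) with PGE2 and 2.71 (SE 0.12, edgeR adjusted p = 2.74e-10) with beads. Prag1, a pseudokinase, stood at 7.76, 5.19, 4.14 and 3.52 CPM, 1.30, 1.07, 0.964 and 1.17 CPM and 43.3, 39.2, 30.6 and 23.5 CPM in the same group order, again without overlap, with log2 fold changes of -2.16 (SE 0.27, edgeR adjusted p = 3.67e-05) and 2.74 (SE 0.22, edgeR adjusted p = 4.43e-08). On the log2(FPKM + 1) scale, which shrinks changes of low genes, the fall with PGE2 was under 2-fold for Ccl1, Dlk2, Car12 and Prag1. Genes with a mean under 1 FPKM over the 12 libraries, Fzd9 among them, were not fitted on this scale, here or below. The unnamed gene models 4933421A08Rik and D030028A08Rik would have ranked among these 6 and were passed over.

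Of the 15 gene lists, that of cytokines and chemokines had the widest median difference between PGE2 alone and beads alone, -4.66 on the log2 scale beside 0.03 over all genes tested. Of its 22 tested members PGE2 lowered 10 and raised 0, and beads raised 20 and lowered 0 (edgeR; at an unadjusted p under 0.05, PGE2 raised 2 and beads lowered 0). For PGE2, DESeq2 gave the same numbers of DEGs as edgeR in each of the 15 lists, and for beads in each list with a count of 0. By limma on log2(FPKM + 1), the numbers that PGE2 lowered were smaller in several lists, at 4 of the cytokines, 17 of the ribosome biogenesis genes and 0 of the antigen receptor transcription factors, cholesterol and survival genes, against 10, 21, 3, 2 and 1 by edgeR. The medians were -1.12 and 3.85 on the log2 scale, beside -0.01 and -0.05 over all genes tested. All 10 members that PGE2 lowered were raised by beads, namely Ccl1, Ccl3, Ccl4, Ifng, Il2, Il3, Il10, Il13, Lta and Tnf. Il2, which encodes the T cell growth factor that these cultures also received, was at 0.441, 0.832, 1.55 and 3.37 CPM at baseline, 0.0351, 0.0281, 0.110 and 0.458 CPM with PGE2 and 159, 117, 79.3 and 49.9 CPM with beads. The baseline and PGE2 libraries of Il2 overlapped in 1 library, and each PGE2 library was below the baseline library of its number. Its log2 fold changes were -3.21 (SE 0.85, edgeR adjusted p = 0.0114) and 5.95 (SE 0.47, edgeR adjusted p = 2.83e-08), and without baseline replicate 4 the PGE2 call was lost (-2.51, edgeR adjusted p = 0.0518).

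Ifng, the interferon of effector T cells, was at 3.39, 4.83, 7.23 and 26.4 CPM at baseline, where replicate 4 stood far above the others. PGE2 libraries held 0.948, 1.10, 2.29 and 5.49 CPM and bead libraries 1258, 1241, 815 and 663 CPM. Replicate 4 was the highest with PGE2 too, and each PGE2 library was below the baseline library of the same number. The log2 fold change with PGE2 was -2.05 (SE 0.61, edgeR adjusted p = 0.0213), and it was -1.04 (edgeR adjusted p = 0.132) without that baseline library. The call was also lost on leaving out PGE2 alone replicate 1, 2 or 3. Il3, a growth factor of haematopoietic cells, had log2 fold changes of -3.09 (SE 1.02, edgeR adjusted p = 0.0362) and 5.56 (SE 0.51, edgeR adjusted p = 1.39e-07), and its PGE2 call was lost on leaving out any of these libraries or baseline replicate 3 or 4. These fits did not use the replicate numbers, and with replicate number as a block the PGE2 calls of Ifng, Il2 and Il3 were kept. Ifng shares 25.9% of its exon bases with a gene model on the same strand. The bead change was 6.54 (SE 0.61, edgeR adjusted p = 1.74e-07), and that of PGE2 alone against beads alone was -8.59 (SE 0.69, edgeR adjusted p = 1.75e-08).

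Other secreted factors were not called with PGE2. Ccl5, an abundant chemokine of memory CD8+ T cells, had log2 fold changes of -0.19 with PGE2 and -0.13 with beads, neither past the test. Xcl1, a chemokine that draws dendritic cells, was raised by beads (5.85, SE 0.42, edgeR adjusted p = 1.17e-08) and measured -0.80 (SE 0.40, edgeR adjusted p = 0.168) with PGE2, which did not pass. Csf1, Il4, Tgfb1, Cxcl10 and Cxcl16 were raised by beads and did not pass the test with PGE2.

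Nucleolar ribosome biogenesis genes, which build ribosomal subunits from rRNA, were lower with PGE2 and higher with beads in all 30 cases, each with an edgeR adjusted p under 0.05, and 21 and 29 of them were DEGs. The medians were -1.13 with PGE2 and 1.78 with beads. Polr1b, the second subunit of RNA polymerase I, was at 41.0, 43.7, 36.4 and 45.1 CPM at baseline, 11.5, 11.9, 10.4 and 15.2 CPM with PGE2 and 277, 298, 241 and 218 CPM with beads. The 4 libraries of each treatment lay apart from those at baseline, and the log2 fold changes were -1.74 (SE 0.12, edgeR adjusted p = 4.80e-07) and 2.63 (SE 0.12, edgeR adjusted p = 3.83e-10). Gnl3, the nucleolar GTPase nucleostemin, went from 68.9, 80.3, 55.1 and 74.4 CPM to 18.7, 20.03, 18.1 and 26.7 CPM and to 377, 365, 317 and 305 CPM (-1.72 and 2.28). Rrp9, which helps to process rRNA, and Ppan, a factor of the large subunit, followed the same order, with -1.45 and -1.36 for PGE2 and 2.71 and 2.92 for beads. The member that was not a DEG with beads was Npm1, at -0.31 and 0.87 on the log2 scale. Among the abundant members of the class outside this list, picked after their values were seen, were Srm, the spermidine synthase (-1.93 and 2.55), and Mat2a, which makes S-adenosylmethionine (-1.16 and 2.12).

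In the list of ATF4 targets and amino acid transporters, PGE2 lowered 1 of 20 and beads raised 10, with medians of -0.27 and 0.93. Slc7a5, the large neutral amino acid transporter, was the gene called in both (172 ± 11.3 CPM at baseline, 74.8 ± 14.5 with PGE2 and 605 ± 59.1 with beads, mean ± SD, n = 4, for log2 fold changes of -1.19 and 1.81). The transporters Slc7a1 and Slc1a4 and the ATF4 target Chac1 were lower with PGE2 at the adjusted p alone (-0.80, -0.89 and -0.81) and raised by beads (2.00, 1.91 and 2.89), and Slc1a4 and Chac1 passed a fold of 2 with PGE2 once PGE2 alone replicate 4 was left out. In the cholesterol list of 22, PGE2 lowered 2, while 14 were lower at the adjusted p alone, and beads raised 7 and lowered 2 (medians -0.46 and 0.37). Insig1, which senses sterols, and Idi1, an enzyme of the pathway, were lower with PGE2 at the adjusted p alone (-0.62 and -0.87) and raised by beads (1.58 and 1.31). The 2 genes that beads lowered were the cholesterol exporters Abca1 (-1.56) and Abcg1 (-1.71), which measured 0.64 and 0.24 with PGE2. Of 18 glycolysis genes PGE2 changed 0 (edgeR; 8 higher and 1 lower at an unadjusted p under 0.05) and beads raised 2, Hk2, which was just under a fold of 2 without baseline replicate 1, and Slc16a1, a lactate transporter (2.00, against -0.63 with PGE2). Pfkfb3 and Pgam1, enzymes of the pathway, measured 0.70 and 0.64 with beads and -0.02 and 0.05 with PGE2.

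Transcription factors that follow the antigen receptor were raised by beads in 26 of 33 cases and lowered in 1, with a median of 1.77. PGE2 lowered 3 of the 33 and raised 0 (median -0.07; 8 higher at an unadjusted p under 0.05), and all 3, Batf3, Egr3 and Eomes, were raised by beads. Eomes, a T-box factor of effector and memory cells, was at 24.1, 17.0, 12.3 and 18.7 CPM at baseline, 10.2, 5.54, 5.86 and 10.9 CPM with PGE2 and 178, 157, 118 and 112 CPM with beads. Its PGE2 libraries were all below its baseline libraries. The log2 fold change was -1.13 (SE 0.24, edgeR adjusted p = 0.00282), and it came to -0.96 without baseline replicate 1 and -0.99 without PGE2 alone replicate 2. Egr1, an immediate early zinc finger factor, was at 39.7, 29.1, 25.4 and 34.5 CPM, 16.4, 13.6, 12.8 and 20.96 CPM and 319.8, 296, 281 and 267 CPM in baseline, PGE2 and bead libraries. Its log2 fold change with PGE2 was -0.99 (SE 0.15, edgeR adjusted p = 1.88e-04), just short of a fold of 2 and past it without PGE2 alone replicate 4 (-1.16), and with beads it was 3.17 (SE 0.15, edgeR adjusted p = 5.41e-10). Myc, the growth regulator, measured -0.97 and 3.10. Egr2 and Fosl1 were raised by beads (3.69 and 3.61) and measured -0.68 and -0.51 with PGE2, which did not pass. Without PGE2 alone replicate 4, Egr2 became a DEG lowered by PGE2 (-1.01, edgeR adjusted p = 0.0174). Fosl1 is uncertain, since 57.2% of its exon bases overlap Ccdc85b on the other strand. Fos and Fosb, AP-1 subunits, passed the adjusted p upwards in both (0.81 and 0.90 with PGE2, 3.04 and 2.84 with beads). Ikzf2, which encodes Helios, passed it in opposite directions (0.98 and -1.35). Feedback inhibitors of these signals were raised by beads in 16 of 27 cases and lowered in 1, and PGE2 changed 0 of them (edgeR; 11 higher and 4 lower at an unadjusted p under 0.05). Spry1 and Cish, which restrain MAP kinase and cytokine signals, and the NF-kB inhibitors Tnip3 and Nfkbid were raised by beads (4.56, 2.84, 3.26 and 3.87) and measured -0.26, -0.18, -0.20 and -0.50 with PGE2. Tnfaip3, the NF-kB inhibitor A20, passed the adjusted p upwards in both (0.98 and 1.82).

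**Figure D2:**
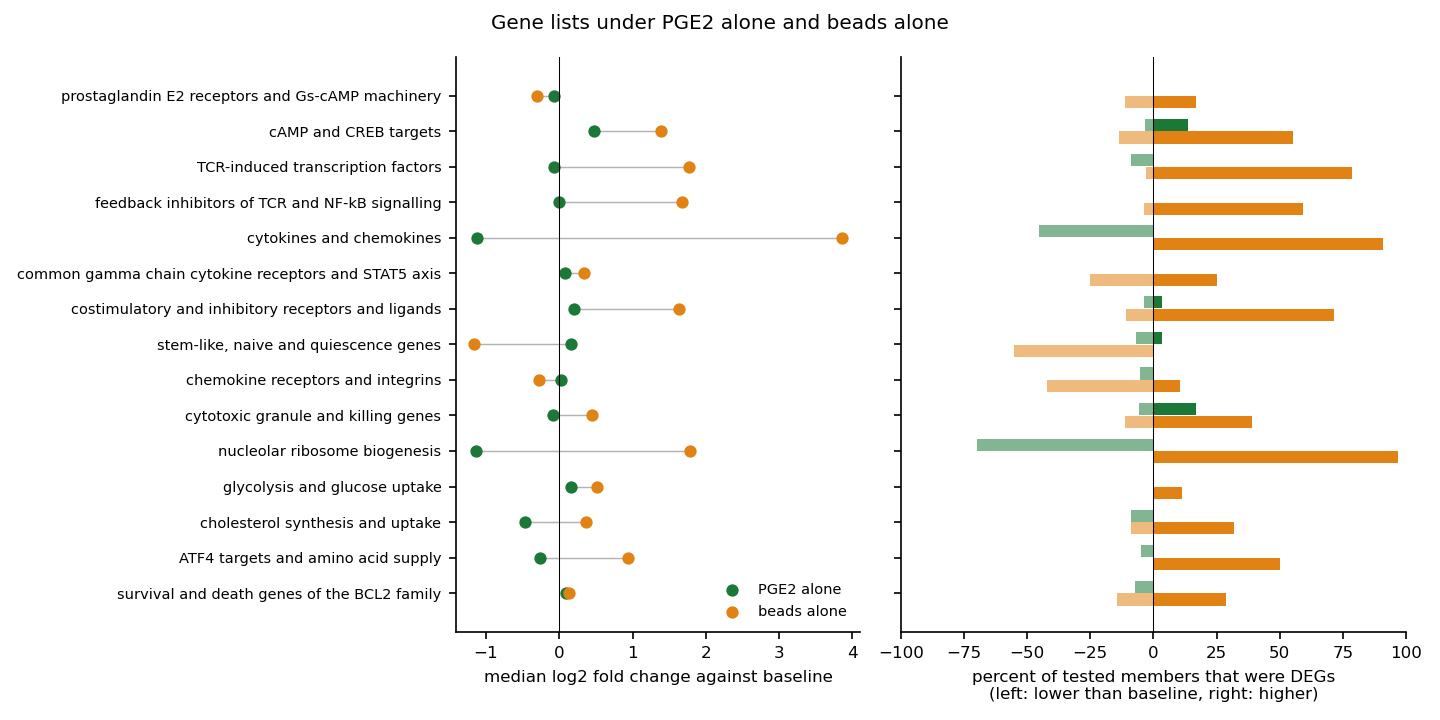
Left, the median log2 fold change against baseline of the tested members of 15 gene lists for PGE2 alone (green) and beads alone (orange). Right, the percent of those members that were DEGs, lower to the left in pale bars and higher to the right. The cytokine and ribosome biogenesis lists lie left of 0 for PGE2 (-1.12 and -1.13) and right of 0 for beads (3.85 and 1.78).

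The 57 genes raised by PGE2 and lowered by beads had medians of 1.40 and -1.69 on the log2 scale, and in 44 of them no treated library overlapped baseline in either comparison. None of the 57 belonged to the 15 gene lists, where the class held 57 of all 14793 genes tested. With so small a share, absence from short lists tells little. Siah3 (chromosome 14, 75455982 to 75529708), of the SIAH family, was at 1.23, 1.36, 2.36 and 1.69 CPM at baseline, 6.67, 6.36, 9.09 and 6.79 CPM with PGE2 and 0.159, 0.330, 0.202 and 0.253 CPM with beads. The 3 groups were separate in every library, with log2 fold changes of 2.11 (SE 0.21, edgeR adjusted p = 5.27e-06) and -2.85 (SE 0.30, edgeR adjusted p = 5.38e-07). Ncald, a calcium sensor of the neurocalcin type, stood at 2.87, 2.73, 2.05 and 1.96 CPM, 7.13, 8.13, 7.65 and 6.64 CPM and 0.159, 0.330, 0.484 and 0.422 CPM in the same order. It too was separate in all libraries (1.64 and -2.84).

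Rapgef3 encodes EPAC1, a cAMP-gated exchange factor that switches on the GTPase Rap1. Its baseline libraries held 1.41, 1.80, 2.05 and 2.02 CPM, its PGE2 libraries 3.34, 5.23, 6.88 and 4.91 CPM and its bead libraries 0.344, 0.220, 0.363 and 0.507 CPM. Each PGE2 library exceeded each baseline library and each bead library lay below, for log2 fold changes of 1.49 (SE 0.22, edgeR adjusted p = 1.71e-04) and -2.37 (SE 0.29, edgeR adjusted p = 3.09e-06).

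Gpld1, a phospholipase that cuts GPI anchors, was at 3.00, 3.13, 5.26 and 4.76 CPM, 10.1, 11.96, 11.7 and 10.51 CPM and 1.01, 0.991, 1.53 and 1.31 CPM in baseline, PGE2 and bead libraries (1.46 and -1.77). It is uncertain, because 45.5% of its exon bases overlap Mrs2 on the other strand, at 47.2 CPM, and the use of strand in counting is not given in the sources used here. Lmtk3, a kinase of the lemur family, was at 5.25, 7.72, 9.99 and 8.10 CPM, 13.9, 17.2, 24.9 and 22.3 CPM and 1.56, 2.17, 2.95 and 3.50 CPM (1.34 and -1.66), and both its changes were under 2-fold on the log2(FPKM + 1) scale. Siah3, Ncald, Rapgef3 and Gpld1, with a mean under 1 FPKM, were not fitted on that scale. The most abundant members, taken after their values were seen, were Emb, a partner of lactate transporters (1.21 and -1.17), Neurl3 (1.29 and -1.11), Lyst, which acts in granule and lysosome traffic (1.10 and -1.27), and Dgat1, which makes triglycerides (2.06 and -1.32). Gm15513 and Gm19557, unnamed models, were passed over by the naming rule.

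Genes of stem-like, naive and quiescent T cells were lowered by beads in 16 of 29 cases and raised in 0 (median -1.16; 5 higher at an unadjusted p under 0.05), while PGE2 raised 1 and lowered 2 (median 0.16). None was in the class raised by PGE2 and lowered by beads, which tells little, since that class held 57 of all 14793 genes tested. S1pr1, the receptor that guides exit from lymph nodes, was at 333, 274, 221 and 170.3 CPM at baseline, 396, 336, 272 and 213 CPM with PGE2 and 35.9, 29.2, 26.5 and 25.03 CPM with beads. The first 2 groups overlapped and the bead group lay far below, with log2 fold changes of 0.30 (SE 0.20, edgeR adjusted p = 0.305) and -3.10 (SE 0.22, edgeR adjusted p = 9.87e-09). In both of the first 2 groups S1pr1 fell from replicate 1 to 4. Each PGE2 library was above the baseline library of its number, and the fit did not use the replicate numbers. Tsc22d3, a glucocorticoid-induced factor, Klf3, a quiescence factor, and Pik3ip1, which restrains PI3 kinase, were likewise lowered by beads (-2.82, -2.59 and -2.96) and not called with PGE2 (0.37, 0.49 and 0.08). In these too, each PGE2 library was above the baseline library of its number. Tcf7 measured 0.03 with PGE2 and was lowered by beads (-1.94). Phlpp1, a phosphatase that restrains AKT, was the gene that PGE2 raised (1.40, SE 0.11, edgeR adjusted p = 9.93e-07), and with beads it was lower at the adjusted p alone (-0.84). Id3, an inhibitor of E proteins, was lowered by PGE2 (-1.09) and not called with beads (0.37), and Il6ra was lowered by both (-1.28 and -1.73). Of 19 chemokine receptors and integrins, which here include the egress receptor S1pr4, beads raised 2 and lowered 8, and PGE2 lowered 1, Itgae, part of the integrin that binds E-cadherin (-1.08), which was lower with beads at the adjusted p alone (-0.98). Beads raised Ccr8, the receptor of Ccl1 (2.86), and lowered S1pr4, the integrin chain Itga2 and Cxcr4 (-2.46, -2.43 and -1.46). With PGE2 these 4 genes measured -0.27, 0.11, 0.03 and 0.57, and Cxcr4 passed the adjusted p.

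**Figure D3:**
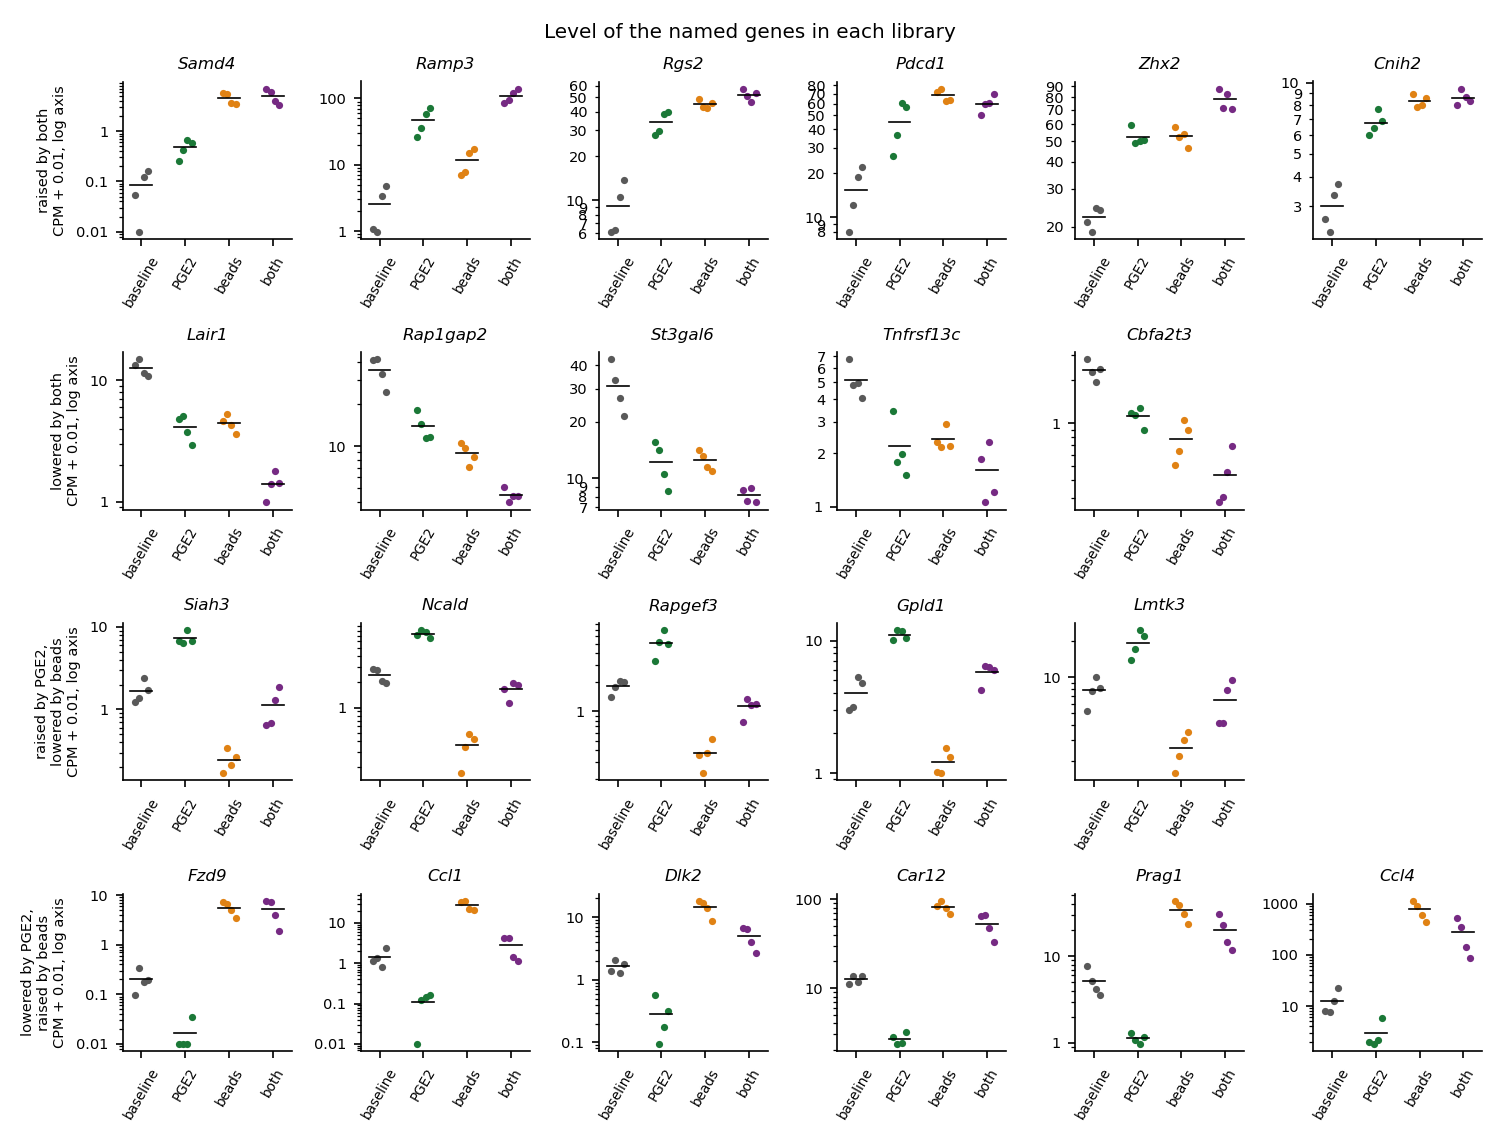
Level of each named gene (CPM + 0.01, log axis, 1 panel a gene) in each of the 4 libraries of baseline, PGE2 alone, beads alone and both treatments, with a bar at the mean. Rows are the 4 classes, and the lower 2 rows show PGE2 and beads on opposite sides of baseline, as for Car12 with PGE2 at 2.34 to 3.18 CPM and beads at 67.9 to 95.6 CPM.

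The 30 genes raised by both agents had medians of 1.43 with PGE2 and 1.98 with beads. Whether the 2 agents raised them to the same extent was tested between the treated groups. In 22 of the 30 the direct comparison called no DEG, in 6 beads raised the gene more and in 2 PGE2 did, where 32.3% of all genes tested were called. An absence of a call does not show equal levels. In 19 of the 30 no treated library overlapped baseline in either comparison.

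Ramp3, which partners a Gs-coupled receptor of the calcitonin family (chromosome 11, 6658521 to 6677475), was raised more by PGE2 than by beads. It was at 1.06, 0.965, 3.32 and 4.82 CPM at baseline, 26.1, 35.2, 58.3 and 72.6 CPM with PGE2 and 7.04, 7.64, 15.3 and 17.3 CPM with beads. All libraries of the 3 groups were apart, and PGE2 alone exceeded beads alone by 2.06 (SE 0.41, edgeR adjusted p = 2.89e-04) on the log2 scale, after changes of 4.20 (SE 0.47, edgeR adjusted p = 1.45e-05) and 2.14 (SE 0.46, edgeR adjusted p = 7.98e-04) against baseline. The other gene of this kind, Lhfpl2, was at 0.132, 0.166, 0.0844 and 0.120 CPM, 1.33, 1.60, 1.18 and 1.70 CPM and 0.370, 0.330, 0.242 and 0.0844 CPM. Its bead and baseline libraries overlapped, and its bead call was lost in 13 of the 17 alternatives run.

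Rgs2, which speeds the shut-off of G proteins and is itself a known CREB target, was at 6.13, 6.29, 10.52 and 13.8 CPM at baseline, 27.9, 29.7, 38.6 and 39.5 CPM with PGE2 and 49.1, 43.2, 42.7 and 46.1 CPM with beads. Both treated groups lay above all baseline libraries, with changes of 1.88 (SE 0.21, edgeR adjusted p = 1.33e-05) and 2.28 (SE 0.21, edgeR adjusted p = 1.39e-07), and their difference was -0.40 (SE 0.19, edgeR adjusted p = 0.0782). Pdcd1, which encodes the inhibitory receptor PD-1, rose from 7.98, 12.2, 18.8 and 22.2 CPM to 26.2, 36.4, 61.0 and 57.2 CPM with PGE2 and 72.5, 75.9, 62.7 and 63.5 CPM with beads. The log2 fold changes were 1.56 and 2.14 (edgeR adjusted p = 6.89e-04 and 6.30e-06), and the groups differed by -0.58 (SE 0.26, edgeR adjusted p = 0.0611).

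Zhx2, a zinc finger and homeobox repressor, had nearly equal changes. It was at 20.99, 18.9, 24.3 and 23.9 CPM at baseline, 59.7, 48.9, 49.9 and 50.8 CPM with PGE2 and 58.4, 52.4, 54.0 and 46.6 CPM with beads, for changes of 1.26 and 1.253 and a difference of 0.00 (SE 0.09, edgeR adjusted p = 0.968). Cnih2, known from glutamate receptor complexes, stood at 2.65, 2.33, 3.35 and 3.70 CPM, 5.97, 6.39, 7.68 and 6.89 CPM and 8.94, 7.86, 7.99 and 8.57 CPM (1.17 and 1.46, the first under 2-fold on the log2(FPKM + 1) scale). Samd4, an RNA-binding translational repressor, had only 1, 0, 4 and 5 reads in the baseline libraries, 7, 15, 24 and 23 with PGE2 and 215, 149, 89 and 84 with beads. The log2 fold changes of Samd4 were 2.53 and 5.74. The direct difference of Samd4 was -3.21 (SE 0.33, edgeR adjusted p = 3.31e-07), and its mean was too low for the fit on the log2(FPKM + 1) scale. The models 4833407H14Rik and Gm17767 were passed over.

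Killing genes gave 2 further members. Fasl, the ligand of the death receptor Fas, rose with PGE2 (1.87, SE 0.22, edgeR adjusted p = 2.39e-05) and with beads (1.09, SE 0.22, edgeR adjusted p = 4.90e-04), and Serpinb6b, a serpin, rose with both as well (1.04 and 2.24). Over the 18 cytotoxic genes tested, PGE2 raised 3 and lowered 1 and beads raised 7 and lowered 2. Gzmb, the serine protease granzyme B, was at 529.8, 738, 699 and 1040.5 CPM at baseline, 287, 349.5, 367 and 637 CPM with PGE2 and 5037, 5501, 5247 and 5408 CPM with beads. Its PGE2 and baseline libraries overlapped, although each PGE2 library was below the baseline library of its number. The log2 fold change of -0.86 (edgeR adjusted p = 0.00779) was short of a fold of 2 and reached -1.15 without PGE2 alone replicate 4. With beads the change was 2.81. Gzmc, another granzyme, and Prf1, the pore former perforin, were raised by beads (2.78 and 1.89) and measured -0.21 and -0.22 with PGE2. Klrd1, the NK receptor subunit CD94, passed the adjusted p upwards with PGE2 (0.83) and was lowered by beads (-1.49).

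Of 28 costimulatory and inhibitory receptors and ligands, beads raised 20 and lowered 3 and PGE2 raised only Pdcd1 and lowered only Btla, an inhibitory receptor that beads raised (-1.05 and 1.29). Tnfsf14 (the ligand LIGHT), the activation marker Cd69, Cd83 and the receptor Cd160 were raised by beads (4.26, 3.43, 3.40 and 2.46) and measured -0.72, -0.46, -0.37 and -0.89 with PGE2. Of these, Cd160 passed the adjusted p with PGE2, and without PGE2 alone replicate 4 Tnfsf14 and Cd160 became DEGs (-1.02 and -1.04). Tigit and the receptors Tnfrsf9 and Tnfrsf18 passed the adjusted p upwards in both without a fold of 2 for PGE2 (0.95, 0.91 and 0.85, against 1.54, 2.79 and 1.40 with beads). Nt5e, the ectonucleotidase CD73, passed it upwards with PGE2 (0.76) and was lowered by beads (-2.05).

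The 19 genes lowered by both had medians of -1.33 with PGE2 and -1.35 with beads, and the direct comparison called 1 of them, Parm1. In 16 of the 19 no treated library overlapped baseline in either comparison. Lair1, an inhibitory receptor for collagen (chromosome 7, 4003402 to 4063204), was at 13.4, 14.9, 11.5 and 10.9 CPM at baseline, 4.78, 5.12, 3.74 and 2.90 CPM with PGE2 and 4.60, 5.29, 4.28 and 3.63 CPM with beads. Treated groups of Lair1 overlapped each other and lay below baseline, with changes of -1.60 (SE 0.18, edgeR adjusted p = 1.34e-05) and -1.51 (SE 0.18, edgeR adjusted p = 1.98e-06) and a difference of -0.09 (SE 0.18, edgeR adjusted p = 0.659). Rap1gap2, which switches off the Rap1 that EPAC1 switches on, was at 41.7, 41.8, 33.0 and 24.6 CPM, 18.02, 14.5, 11.3 and 11.7 CPM and 10.503, 9.65, 7.06 and 8.32 CPM in the order baseline, PGE2, beads. Its log2 fold changes were -1.33 and -1.99, and all its PGE2 libraries stayed above its bead libraries, by 0.65 (SE 0.19, edgeR adjusted p = 0.00561).

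St3gal6, a sialyltransferase, was at 43.0, 33.4, 26.7 and 21.6 CPM, 15.5, 14.1, 10.54 and 8.57 CPM and 14.2, 13.2, 11.5 and 10.9 CPM (-1.34 and -1.32), and 26.0% of its exon bases overlap Dcbld2 on the other strand, at 1.77 CPM. Tnfrsf13c, the BAFF receptor that B cells carry most, was at 6.70, 4.79, 4.95 and 4.06 CPM, 3.44, 1.77, 1.95 and 1.501 CPM and 2.30, 2.17, 2.91 and 2.20 CPM (-1.24 and -1.10). The summed B cell markers, at 12.2 to 21.9 CPM at baseline, 10.1 to 17.7 CPM with PGE2 and 4.92 to 12.4 CPM with beads, moved with it, and their part was not tested. Its bead change was -0.95 without baseline replicate 1. Cbfa2t3, a transcriptional corepressor, was at 2.78, 2.26, 1.94 and 2.38 CPM, 1.16, 1.13, 1.27 and 0.890 CPM and 0.503, 0.624, 1.05 and 0.887 CPM (-1.06 and -1.64), and its PGE2 change was under 2-fold without baseline replicate 1 or PGE2 alone replicate 4. On the log2(FPKM + 1) scale the PGE2 changes of Rap1gap2, St3gal6 and Tnfrsf13c and the bead changes of the latter 2 were also under 2-fold. Lair1 and Cbfa2t3, with a mean under 1 FPKM, were not fitted on that scale. The model Gm11998 was passed over.

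Parm1, a mucin-like membrane protein, had 14, 25, 35 and 16 reads at baseline and 2, 0, 1 and 0 with PGE2, 3 reads against 90. The level with PGE2 was 34.5-fold lower, with a counting interval of 11.4 to 170 (exact binomial). With beads it was at 0.212, 0.477, 0.363 and 0.253 CPM against 0.617, 0.832, 0.985 and 0.482 CPM at baseline (-1.19, SE 0.40, edgeR adjusted p = 0.0168), a call lost without baseline replicate 3 or beads alone replicate 1.

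Another 223 genes that PGE2 changed were not bead DEGs, and for 18 of them the bead change was bounded, with a 95% interval inside a fold of 1.5 either way. Of these 18, PGE2 raised 8 and lowered 10. Those named were picked among genes whose PGE2 libraries did not overlap baseline. Crem, a CREB-family gene whose ICER promoter answers to cAMP, led the named ones (chromosome 18, 3266048 to 3337748). It was at 54.4, 63.7, 81.9 and 94.7 CPM at baseline, 217, 228, 248 and 232 CPM with PGE2 and 67.7, 70.7, 85.8 and 103 CPM with beads. The PGE2 libraries stood above all the others while baseline and bead libraries overlapped, with changes of 1.66 (SE 0.15, edgeR adjusted p = 3.11e-06) and 0.14 (SE 0.15, edgeR adjusted p = 0.437), the latter with an interval of -0.18 to 0.46. Zeb1, a zinc finger repressor, stood at 78.1, 75.4, 80.0 and 70.0 CPM, 200.1, 187, 172 and 145 CPM and 59.3, 59.8, 65.7 and 67.2 CPM (1.23 with PGE2, bead interval -0.47 to -0.09). All bead libraries of Zeb1 were a little below baseline, and that change passed the adjusted p (-0.28, SE 0.09, edgeR adjusted p = 0.0121).

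The signalling adaptor Gab2 was at 1.59, 2.66, 2.34 and 3.64 CPM, 5.51, 5.94, 7.13 and 8.50 CPM and 2.28, 3.23, 1.86 and 2.66 CPM (1.41 with PGE2, bead interval -0.56 to 0.46), and Spsb1, a ubiquitin ligase adaptor, at 1.76, 1.53, 2.34 and 2.47 CPM, 4.71, 5.04, 4.52 and 5.57 CPM and 2.09, 1.39, 2.26 and 1.65 CPM (1.30, bead interval -0.57 to 0.28). In both, PGE2 libraries were above all others and bead libraries overlapped baseline. On the lowered side, Aqp9, a channel for water and glycerol, was at 4.89, 6.06, 3.80 and 3.10 CPM at baseline, 0.843, 0.563, 0.606 and 0.712 CPM with PGE2 and 5.21, 4.22, 4.04 and 3.00 CPM with beads. Its PGE2 change was -2.70 (SE 0.25, edgeR adjusted p = 3.11e-06), and its bead interval was -0.57 to 0.35. Hsd11b1, which regenerates active glucocorticoid, was at 21.5, 18.4, 13.8 and 11.6 CPM, 6.67, 6.84, 5.67 and 4.60 CPM and 19.5, 16.5, 15.1 and 12.5 CPM (-1.44, bead interval -0.43 to 0.36). Zdhhc14, a palmitoyltransferase, ran from 2.03 to 2.60 CPM at baseline to 0.562 to 0.928 CPM with PGE2 and 2.07 to 2.94 CPM with beads, and Spin2c, of the spindlin family, from 3.35 to 4.81 CPM to 1.26 to 1.46 CPM and 4.44 to 5.19 CPM. Their PGE2 changes were -1.62 and -1.58, and those of Spin2c and Hsd11b1 were under 2-fold on the log2(FPKM + 1) scale.

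Of 29 cAMP and CREB target genes tested PGE2 raised 4, Crem, Fosl2, Klf4 and Rgs2, and lowered Per2, while 14 were higher at the adjusted p alone (median 0.48). Beads raised 16 and lowered 4 (median 1.39). The phosphodiesterases Pde4b and Pde4d, which break down cAMP, passed the adjusted p upwards with PGE2 (0.45 and 0.52) and were lowered by beads (-1.17 and -1.47). Rgs16, which shuts off G proteins, and Atf3, a stress-induced factor, were raised by beads (4.60 and 3.58) and not called with PGE2 (-0.28 and 0.37). Nr4a1, an orphan nuclear receptor induced by both routes in many cells, was raised by beads (3.92) and measured -0.07 (SE 0.20, edgeR adjusted p = 0.841) with PGE2. Per2, a clock gene, was in the opposite class, at 7.27, 7.12, 5.26 and 5.21 CPM at baseline, 2.11, 1.94, 1.95 and 2.16 CPM with PGE2 and 50.1, 52.8, 41.5 and 37.9 CPM with beads. No library of these groups overlapped (-1.58 and 2.88, the first under 2-fold on the log2(FPKM + 1) scale).

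Both EP receptor genes named here were raised by beads and not by PGE2. Ptger4 was at 32.3, 31.5, 34.3 and 35.0 CPM at baseline, 23.7, 22.5, 20.3 and 22.2 CPM with PGE2 and 123, 115, 109 and 94.0 CPM with beads. It was lower in every PGE2 library (-0.57, SE 0.08, edgeR adjusted p = 1.48e-04) and higher in every bead library (1.72, SE 0.08, edgeR adjusted p = 5.55e-10), with the PGE2 change under a fold of 2. Ptger2 was at 6.44, 5.86, 6.67 and 5.63 CPM, 8.15, 7.37, 7.71 and 7.56 CPM and 33.997, 31.6, 25.8 and 22.9 CPM, raised by beads (2.21, SE 0.12, edgeR adjusted p = 1.33e-09) and at 0.34 (SE 0.13, edgeR adjusted p = 0.0610) with PGE2. Of the 18 genes of receptors, adenylyl cyclases, kinase subunits and CREB factors tested, PGE2 changed 0 (edgeR; 3 higher and 6 lower at an unadjusted p under 0.05, 5 of the latter at the adjusted p). Beads raised 3, Ptger2, Ptger4 and Prkar2a, a regulatory subunit of protein kinase A (1.32), and lowered 2, the adenylyl cyclase Adcy7 (-1.54) and Prkacb.

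The IL-2 receptor chain Il2ra was at 362, 431, 419.6 and 631 CPM at baseline, 272, 277, 295 and 388 CPM with PGE2 and 1503, 1572, 1548 and 1690.0 CPM with beads. Its PGE2 libraries overlapped baseline, for a change of -0.57 (SE 0.15, edgeR adjusted p = 0.00953) that was short of a fold of 2, and beads raised it by 1.77. Each PGE2 library of Il2ra was below the baseline library of its number, and the fit did not use these numbers. Of the 12 genes of the common gamma chain receptors and their JAK-STAT5 axis tested, PGE2 changed 0 (edgeR; 2 higher and 3 lower at an unadjusted p under 0.05), and beads raised 3 and lowered 3. Stat5a, a transcription factor of this axis, and Il15ra were raised by beads (2.53 and 2.22) and Il9r was lowered (-2.14), and with PGE2 they measured -0.24, -0.22 and 0.29. Il9r had only 1, 2, 3 and 3 reads in the bead libraries, and its call was lost without beads alone replicate 1 (-1.73, edgeR adjusted p = 0.0761). Among 14 survival and death genes, PGE2 lowered 1, Bid, which beads raised (-1.13 and 1.43), and beads raised 4 and lowered 2. Bcl2l1, which encodes the survival factor BCL-XL, was lower with PGE2 at the adjusted p alone (-0.80) and raised by beads (2.86). Bmf, which promotes death, was lowered by beads (-2.62) and measured 0.18 with PGE2. Bcl2a1b and Bcl2a1d, near-identical survival genes whose reads may be shared, measured 3.22 and 3.13 with beads and 0.24 and 0.31 with PGE2.

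The cells that received both agents took no part in defining the classes and show where the members settled. On a scale on which PGE2 alone is 0 and beads alone is 1, the mean log2 CPM (prior count 2) of the genes lowered by PGE2 and raised by beads had a median position of 0.861. Of the 203, 200 were above baseline, by a median of 1.46, where the 2 separate changes sum to a median of 0.62. The changes with both agents are on this log2 CPM scale, whose prior count shrinks changes of low genes. The sums are of edgeR's log2 fold changes, so the scales are unlike and the gap between them does not measure additivity. The 57 genes raised by PGE2 and lowered by beads had a median position of 0.523, with 22 above and 35 below baseline, a median of -0.19 and a sum of -0.25. Siah3 was at 0.638, 0.669, 1.31 and 1.88 CPM with both agents, overlapping its baseline libraries, and Rapgef3 at 0.773, 1.34, 1.16 and 1.195 CPM, between its baseline and bead libraries. Ccl4 was at 532, 346, 143 and 85.4 CPM, above baseline, and only replicate 1 reached the range of beads alone. Each of these libraries was below the bead library of its number (means 277 and 774 CPM). Ccl1 was at 4.33, 4.27, 1.43 and 1.11 CPM, overlapping its baseline range. Polr1b was at 262, 257, 171 and 139 CPM and Il2 at 46.6, 31.4, 16.7 and 9.18 CPM.

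All 30 genes raised by both agents were above baseline when both were given, by a median of 2.54 where the separate changes sum to 3.41, and 21 were above either agent alone. All 19 genes lowered by both were below baseline, with a median of -2.37 where the changes sum to -2.95, and 17 were below either agent alone. The sums are again on edgeR's scale and the medians on that of log2 CPM, so these gaps do not measure additivity. Ramp3 reached 84.4, 94.3, 123 and 141 CPM, above every library of either agent alone, and Zhx2 87.8, 71.4, 82.98 and 70.9 CPM. Lair1 was at 0.974, 1.38, 1.78 and 1.41 CPM and Rap1gap2 at 5.04, 3.93, 4.37 and 4.35 CPM, below every library of the other 3 groups. Pdcd1 at 50.2, 59.9, 60.4 and 69.4 CPM overlapped beads alone. Crem was at 228, 239.7, 226 and 197 CPM, overlapping PGE2 alone, and Aqp9 at 0.840, 0.460, 0.861 and 0.427 CPM likewise. These positions are descriptions without a test, since every group they are set against helped to define the classes.

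**Figure D4:**
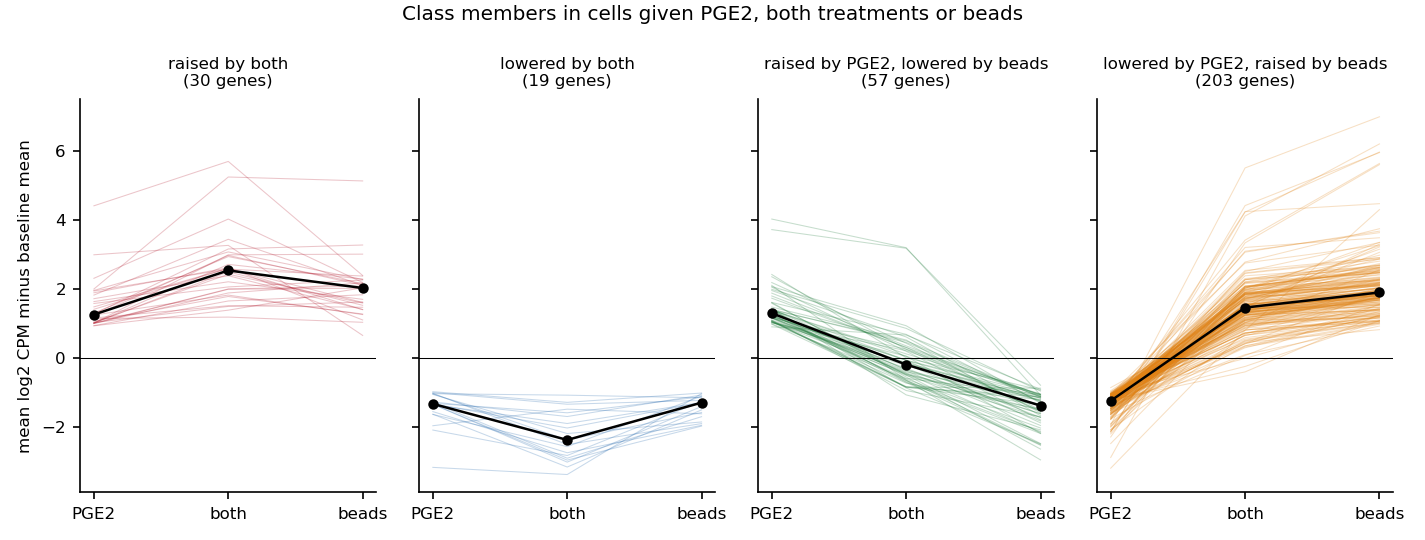
For each class, the mean log2 CPM minus the baseline mean (y axis) of every member in cells given PGE2, both agents or beads, with 1 thin line a gene and the median in black. With both agents the medians were 2.54, -2.37, -0.19 and 1.46 from left to right.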

How the data were processed

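Poly(A) RNA of 16 libraries was sequenced and mapped by the authors with HISAT2 2.0.5 to GRCm38, and the deposited counts per gene came from featureCounts 1.5.0-p3 (annotation release and strand setting are not given in the sources used here). The deposited FPKM values, computed by the authors, served in alternatives only. Libraries held 22678254 to 42950763 counts. Genes were matched by Ensembl ID, since 27 symbols had turned into dates.

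Genes passing filterByExpr (minimum count 10) were fitted with TMM factors by edgeR 4.0.16 (R 4.3.3) in 12 libraries. A DEG had a Benjamini-Hochberg adjusted p under 0.05 and a fold of at least 2, the thresholds of the study. Alternatives used DESeq2 1.42.0, limma 3.58.1 on log2(FPKM + 1 or 0.1) and other filters, and the steps were tested on simulated data. Unless run without the filter, the FPKM fits took genes with a mean of at least 1 FPKM, and genes below it count there as not called. Members, classes and lists were chosen with earlier results of these data known. Named per class were up to 6 genes by the smaller of both absolute changes, with at least 1 CPM and no overlap with baseline; 4 per direction among genes with a bounded bead change; same-way genes changed more by PGE2; up to 4 per list by the direct difference; and Ptger2, Ptger4, Crem and Il2. Some genes that this rule names are not reported here. Other members of lists or classes were named after their values were seen. Exons of 33 of the 99 named genes overlap those of another gene, in 18 cases of one above 1 CPM. Intervals from read counts are exact binomial and cover counting error only.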

Additional observations from a re-analysis of the deposited data

Results flagged for a closer look

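Among the 44 genes whose libraries are given one by one, 176 groups of 4 libraries were screened for a library far from the other 3 by Dixon's ratio, and 5 were found, where chance marks about 1 group in 20. With PGE2 alone, replicate 3 stood at 9.09 CPM for Siah3 beside 6.36 to 6.79 CPM in the others, and replicate 4 at 5.80 CPM for Ccl4 beside 1.80 to 2.17 CPM. Replicate 4 of PGE2 alone held the only read of Fzd9 in its group (0.0254 CPM, the others at 0). Replicate 4 of beads and PGE2 held the only read of Parm1 in its group (0.0427 CPM, the others at 0), against 90 reads at baseline, a level 82.1-fold lower with a counting interval of 14.4 to 3277 (exact binomial). Baseline replicate 4 was at 26.4 CPM for Ifng beside 3.39 to 7.23 CPM in the others, and the PGE2 call of Ifng was lost without it. Replicate 4 was the highest for Ifng with PGE2 alone too.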

How the results depend on the processing

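The 4 classes kept more opposite than same-way genes in every setting run. Of the gene-level results for named genes and settings, 5496 kept their call or stayed without one. A call was lost in 62 (of 33 gene comparisons) and gained in 12 (of 7). Of the results called in the main fit or the alternative, 0 changed sign. The signs of results called in neither were not compared. In what follows, counts are in the order DEGs for PGE2, DEGs for beads, DEGs for PGE2 alone against beads alone, raised by both, lowered by both, raised by PGE2 and lowered by beads, and lowered by PGE2 and raised by beads. On log2(FPKM + 1) they were 116, 1585, 2391, 8, 1, 7 and 64, and without the filter 115, 1614, 2450, 8, 1, 7 and 62. On log2(FPKM + 0.1) they were 257, 2257, 3149, 18, 9 and 16, and 147 in the last class. Without a fold threshold they were 3808, 9715, 10582, 254, 276, 989 and 1629. Requiring 10 counts in every library left 326 DEGs for PGE2, 8 genes lowered by both and 27 raised by PGE2 and lowered by beads. glmTreat against a fold of 1.5 gave 17 raised by both and 10 lowered by both. On log2(FPKM + 1), 63.7% of the bead DEGs were higher (1010 against 575) and 39.2% of those of PGE2 against beads (937 against 1454). Upper-quartile scaling shifted the median of all genes by 0.11 for PGE2 against beads on the log2 scale. Leaving out 1 library gave 473 to 575, 3231 to 3778, 4535 to 5093, 18 to 58, 17 to 24, 47 to 62 and 178 to 245, and the 18 and 58 came without PGE2 alone replicate 4 and baseline replicate 4. The cause was not tested for any of these.

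The main fit did not pair the groups by replicate number. The correlation of deviations was above 0 in every pair of same numbers, at 0.0679 to 0.458 (median 0.246), and under 0.1 in 1 pair. For other numbers it was -0.394 to 0.173 (median -0.0763). A replicate block gave 580, 3521, 4807, 40, 22, 61 and 214. Fzd9, Parm1 and Samd4 rest on few reads in at least 1 group.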
